A study of Gossypium hirsutum with 18 samples.

Results

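Transposon-related genes were followed in ovules of upland cotton (Gossypium hirsutum) by RNA sequencing. They are the annotated genes, with identifiers beginning Gh_, whose deposited description holds the words transposon or transposase, reverse transcriptase, gag-pol, integrase or retrovirus-related, with kinesins left out. In the tables of the 3 days together, 59 genes met this rule, of 9892 annotated genes and 11153 genes in all that were listed on at least 1 day. The tables hold only genes that the authors had called, and a call depends on the level of a gene and the size of its ratio. The choice by description among listed genes used neither direction nor level. All 8 genes listed at -1 DPA and all 11 at 0 DPA were over 4-fold, so their median ratios are shaped by the calls. A further 150 unannotated transcripts carried the same words and are used only for comparison.

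The ovules came from Xu142fl, a fuzzless and lintless cotton line, and from the fiber-bearing line Xu142 from which it derives, at -1, 0 and 1 day post-anthesis (DPA), the days around flower opening on which fiber cells begin to bulge from the seed coat epidermis. The labels give ovule as the tissue, no treatment in either genotype, and no transgene or separate plants. Each genotype and day had 3 libraries, 18 in all, and p-values measure only the spread between these libraries, which may be technical. The title of the series asks about H3K27me3, a repressive histone mark, when fibers initiate, and each day's comparison asks which transcripts differ between Xu142fl and Xu142.

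As background, transposons are stretches of DNA that can move or be copied within a genome, and they make up much of the cotton genome. Retrotransposons move through an RNA copy. Copia-type and Gypsy-type elements carry a gag gene for the coat and a pol gene for integrase and reverse transcriptase, and LINE elements carry a reverse transcriptase of their own. DNA transposons of the hAT, CACTA and Mutator types are cut out and pasted by a transposase. Plants keep most copies silent through DNA methylation, guided in part by small RNAs, and through methylation of histones. Some former transposases now serve the plant, among them DAYSLEEPER of Arabidopsis and the RICESLEEPER proteins of rice, which derive from hAT elements.

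The 59 genes were sorted by the protein name and domains in their descriptions. The sort gave 19 Copia-type genes, 17 hAT genes and 17 genes of LINE-like or other reverse transcriptases, along with 2 genes with a Gypsy-type gag domain and 1 CACTA-type gene with a tnp2 transposase domain. The other 3 are set apart here as host genes in spite of the search words. They are telomerase reverse transcriptase, which extends chromosome ends, and a pair of FAR1-RELATED SEQUENCE 7 genes, whose family in Arabidopsis holds light-signalling factors derived from Mutator transposases. Genes named RICESLEEPER or DAYSLEEPER stayed in the hAT class, and whether they are host genes or transposons was not tested. The genes called reverse transcriptase genes here have that name from words in their descriptions. Of the 17, only Gh_A08G097900 names the RNA-dependent DNA polymerase domain. The others name a reverse transcriptase-like domain, a zinc-binding domain of reverse transcriptases or both. Many copies of a transposon are near identical, and how the authors counted reads that match several copies, or used strand, is not given in the sources used here. The count of any single copy is therefore uncertain. In whole ovules, fewer cells of a type and less RNA per cell cannot be told apart.

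Values are normalised reads per library, read counts divided by 1 factor per library. Over the listed genes the libraries held 210953 to 257804 recovered reads at -1 DPA, 130502 to 346187 at 0 DPA and 2833696 to 6388114 at 1 DPA. Transcripts near absent from 1 genotype on another day were read for their level in that genotype at 0 DPA. Of 326 transcripts near absent from Xu142fl at 1 DPA, 107 stood above 10% of their Xu142 level in Xu142fl at 0 DPA, and their median level in the 3 Xu142fl libraries was 10.01%, 4.95% and 6.63% of that in Xu142. Of 100 transcripts near absent from Xu142 at -1 and 1 DPA, 45 stood above 10% of their Xu142fl level in Xu142 at 0 DPA, with medians of 7.26%, 0.816% and 6.35% in its 3 libraries. Since both sets were picked on other days, these values cannot show that the 0 DPA libraries differ from those of the other days. Levels near 0 at 0 DPA are given library by library, and the part of these values in any result was not tested.

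By the authors' calls, most listed transposon-related genes were higher in Xu142fl at -1 and 1 DPA. At 0 DPA the majority among those called depended on the fit. At -1 DPA the authors listed 8 of them, where 1.5% of the 58161 genes tested were called and 0.824% were called higher, and all 8 were higher in Xu142fl. At 0 DPA they listed 11, where 2.38% of 57326 genes were called (0.876% higher and 1.51% lower), 7 of them higher and 4 lower. The edgeR refit of that day called 5 higher and 4 lower, the replicate block 3 higher and 4 lower, and the fit without Xu142 replicate 2 called 2 higher and 3 lower. At 1 DPA the authors listed all 59, 42 of them higher and 17 lower. That day 17.6% of 61474 genes were called (5.7% higher and 11.9% lower). How many transposon-related genes were tested is not known from the tables. The authors' counts therefore cannot be set as a share against the percentages of genes tested.

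The other annotated listed genes split the other way on each day. The share higher in Xu142fl was 100% among the transposon-related genes and 47.0% among other annotated genes at -1 DPA, 63.6% and 34.3% at 0 DPA, and 71.2% and 30.3% at 1 DPA. The median log2 ratio of group means, Xu142fl over Xu142, was 3.36 among the transposon-related genes and -1.19 among the other annotated genes at -1 DPA. It was 2.18 and -1.73 at 0 DPA, and 1.27 and -1.32 at 1 DPA. Unannotated transcripts with the same words lay between, with 22 of 33, 20 of 45 and 81 of 138 higher in Xu142fl on the 3 days (66.7%, 44.4% and 58.7%). Among all unannotated listed transcripts the share was 71.8%, 42.6% and 47.9%, so those with the same words stood below their own class at -1 DPA and near it at 0 DPA. Genes are not replicates, and no test was made of these splits.

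**Figure D1:**
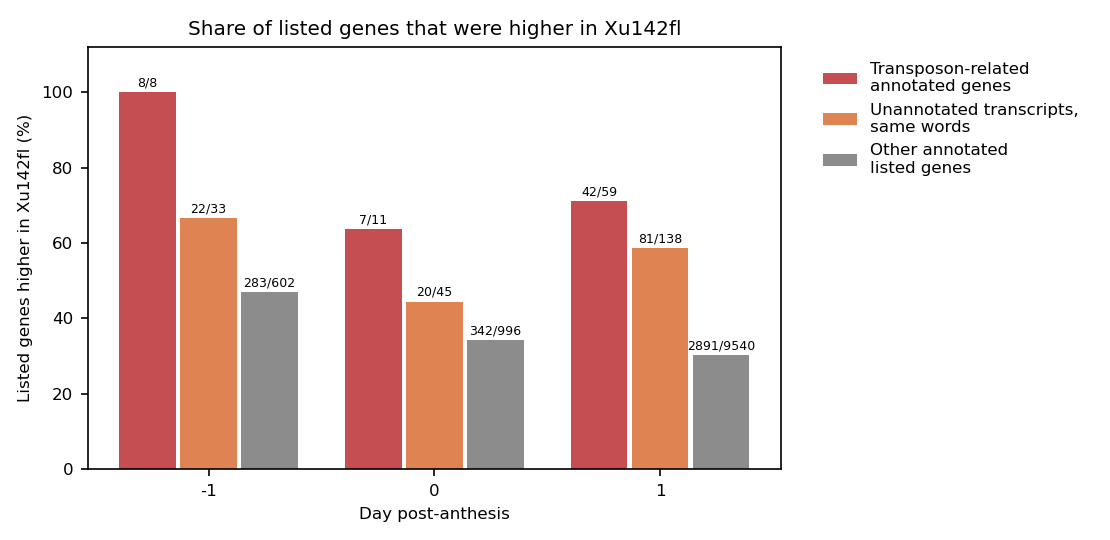
Percent of listed genes that were higher in Xu142fl on each day, for transposon-related annotated genes, unannotated transcripts with the same words and the other annotated listed genes, with the counts above each bar. The transposon-related genes stood at 100%, 63.6% and 71.2%, against 47.0%, 34.3% and 30.3% of the other annotated genes.

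At -1 DPA the 8 genes were 5 hAT genes, 2 reverse transcriptase genes and 1 Copia-type gene, and none had overlapping groups, as in all 610 annotated genes listed that day. The RICESLEEPER 1 gene Gh_D02G012700 (chromosome D02, 1044289 to 1053365, on the authors' build) had 372, 377 and 339.8 normalised reads in the Xu142fl libraries, against 3.73, 7.71 and 2.88 in the Xu142 libraries. It was high in all Xu142fl libraries and close to 0 in all Xu142 libraries. Its log2 ratio was 6.25 ± 0.45 (SE; adjusted p = 7.51e-115 in the authors' deposited table), and per kilobase of transcript it stood highest of the 8, at 143 in Xu142fl and 1.89 in Xu142.

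The other hAT genes of -1 DPA were higher as well. The RICESLEEPER 3 gene Gh_D02G013700 (D02, 1184474 to 1190358) had 164, 198 and 182 in Xu142fl, against 37.3, 48.2 and 27.9 in Xu142, a log2 ratio of 2.26 ± 0.24. Its neighbour Gh_D02G013600 (D02, 1166185 to 1169777), also RICESLEEPER 3, had 49.3, 40.7 and 34.2, against 1.87, 4.82 and 0.961, a log2 ratio of 4.02 ± 0.68. The RICESLEEPER 1 gene Gh_D02G014300 (D02, 1279981 to 1283390) had 83.4, 106 and 96.8 in Xu142fl, against 26.1, 24.1 and 15.4 in Xu142. In each of these genes the lowest Xu142fl library lay above the highest Xu142 library. The gene Gh_Contig01076_ERROPOS454315G000100, named after the transposase of the maize element Activator (Ac), had 59.9, 56.9 and 41.8 in Xu142fl, against 0.933, 0.964 and 1.92 in Xu142. Its log2 ratio was 5.38 ± 0.40 (adjusted p = 1.53e-17 in the authors' deposited table).

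The other 3 genes of -1 DPA were sorted as reverse transcriptase or Copia-type genes. Gh_D01G066900 (D01, 7727954 to 7729453) names a reverse transcriptase-like domain and a zinc-binding domain of reverse transcriptases. It had 31.7, 36.6 and 38.9 in Xu142fl, against 0, 0 and 0.961 in Xu142. With 104 reads in Xu142fl and 1 read in Xu142, the ratio was 113 (95% counting interval 19.9 to 4520.3). Gh_D12G262600 (D12, 59569113 to 59570027), of the same class, had 89.2, 98.6 and 62.7 in Xu142fl, against 12.1, 16.4 and 18.3 in Xu142. The Copia-type gene Gh_D09G149000 had 34.1, 20.3 and 33.2, against 1.87, 7.71 and 3.84, a log2 ratio of 2.71 ± 0.60. It had the largest adjusted p of the 8, 4.09e-05 in the authors' deposited table.

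At 0 DPA the 11 listed genes were 5 hAT genes, of which 4 were higher, 4 reverse transcriptase genes, of which 2 were higher, and the pair with a Gypsy-type gag domain, of which 1 was higher. No Copia-type gene was listed. Groups overlapped in none of the 11, against 8 of 1007 annotated genes of that day. An edgeR refit of the recovered reads called 9 of the 11 at 0 DPA (81.8%), where it called 83.7% of all 1366 listed genes, and it called 8 of 8 at -1 DPA. When 1 library was left out it called between 5 and 9 at 0 DPA. The lowest count came without Xu142 replicate 2, 45.5% of the 11, where 50.4% of all listed genes were called, and 6 were left without Xu142fl replicate 2 or without Xu142fl replicate 3 (54.5%), where 56.0% and 58.4% of all listed genes were called.

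The lower genes of 0 DPA included the 2 with the most reads. Gh_A06G182400 (A06, 116479133 to 116479686), a short gene with a reverse transcriptase-like domain, had 53.9, 13.0 and 24.5 in Xu142fl, against 521, 619.8 and 568 in Xu142. Gh_A08G097900 (A08, 33347763 to 33350916), whose best match is a mitochondrial open reading frame of Arabidopsis with reverse transcriptase sequence, had 46.0, 9.25 and 22.5 in Xu142fl, against 357, 377 and 332 in Xu142. In both genes Xu142fl replicate 1 was highest of its group and replicate 2 lowest, and the medians given above for the 326 transcripts near absent from Xu142fl at 1 DPA stood in that order too. The log2 ratios were -4.23 ± 0.58 for Gh_A06G182400 and -3.78 ± 0.60 for Gh_A08G097900 (adjusted p = 3.86e-35 and 1.15e-24 in the authors' deposited table).

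The other lower genes of 0 DPA had fewer reads. Gh_Contig00458G000100, with a Gypsy-type gag domain, had 3.37, 4.63 and 6.85 in Xu142fl, against 39.6, 40.8 and 24.7 in Xu142. The RICESLEEPER 3 gene Gh_D02G014900 had 10.1, 5.55 and 9.79 in Xu142fl, against 37.5, 33.6 and 72.2 in Xu142. Their log2 ratios were -2.82 ± 0.37 and -2.49 ± 0.45, and neither pair of groups overlapped.

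Of the 7 genes higher at 0 DPA, 4 had 2 or fewer reads in Xu142. Gh_A05G014300, a gene of 606 bases whose description names only a reverse transcriptase-like domain, had 10.1, 13.0 and 10.8 normalised reads in Xu142fl. It had no read in Xu142, and was at least 11.5-fold higher at a floor of 3 reads over the Xu142 group. Gh_Contig01076_ERROPOS454315G000100 had 24.7, 21.3 and 25.4 in Xu142fl, against 1.014, 0 and 1.03 in Xu142. Gh_Contig01109G000500, the other gag gene, had 12.4, 17.6 and 15.7, against 0, 0 and 2.06. Gh_D02G013600 had 18, 13.9 and 23.5 in Xu142fl, against 0, 0.908 and 1.03 in Xu142.

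The other 3 higher genes of 0 DPA had wider groups. Gh_D02G013700 had 92.1, 103 and 189 in Xu142fl, against 19.3, 13.6 and 41.2 in Xu142, with replicate 3 highest in each genotype. Gh_D11G199900, a DAYSLEEPER gene, had 24.7, 29.6 and 53.8 in Xu142fl, against 9.13, 4.54 and 12.4 in Xu142, and again replicate 3 was highest in each genotype. Gh_D01G066900 had 34.8, 36.1 and 50.9, against 1.014, 6.35 and 19.6. The edgeR refit did not call the DAYSLEEPER gene (Benjamini-Hochberg adjusted p = 0.0758) or Gh_D01G066900 (Benjamini-Hochberg adjusted p = 0.244).

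**Figure D2:**
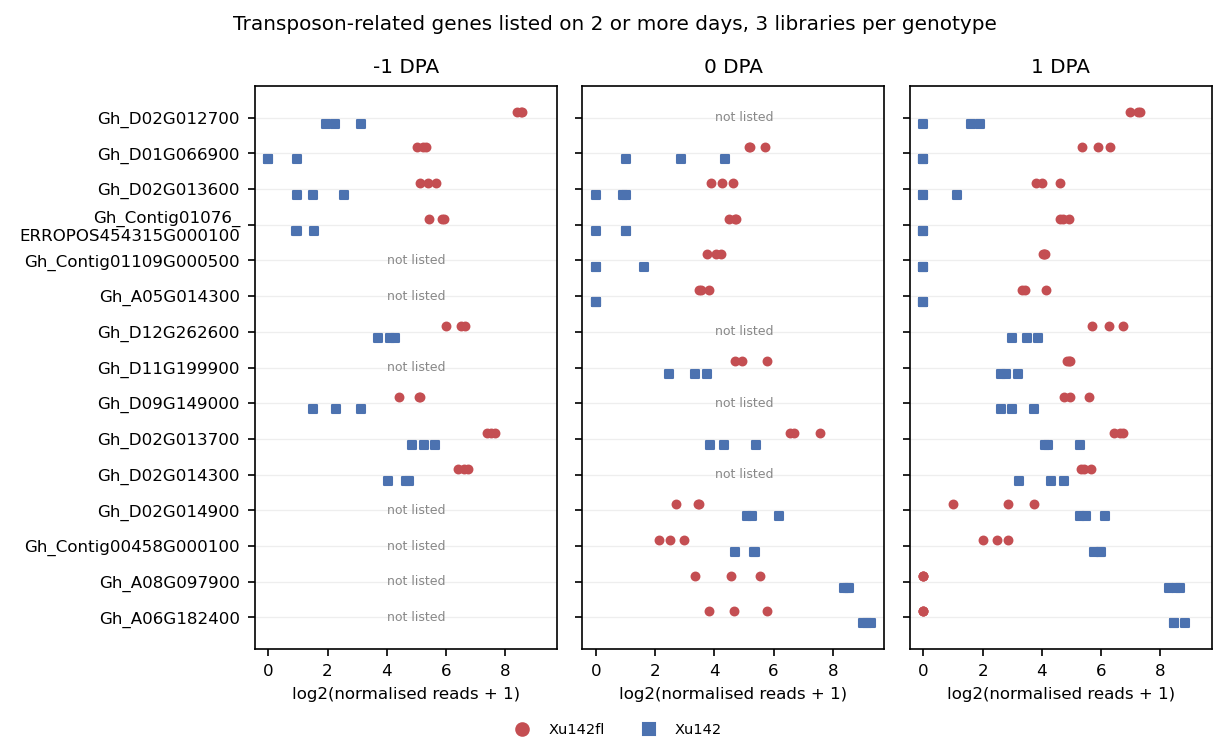
Values of each library, as log2(normalised reads + 1), for the 15 transposon-related genes listed on 2 or more days, with Xu142fl as circles above Xu142 as squares and 1 panel per day. Upper genes were higher in Xu142fl on each day on which they were listed, lower genes were lower, and Gh_A08G097900 and Gh_A06G182400 had no read in Xu142fl at 1 DPA.

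At 1 DPA the hAT genes split into 14 higher and 3 lower, the Copia-type genes into 14 higher and 5 lower, and the reverse transcriptase genes into 11 higher and 6 lower. The Gypsy-type gag genes again split into 1 higher and 1 lower, the CACTA-type gene and telomerase reverse transcriptase were higher, and both FAR1-RELATED SEQUENCE 7 genes were lower. Without the 3 host genes 41 of 56 were higher. These 56 still hold the genes named RICESLEEPER or DAYSLEEPER, which may be host genes too. With 1 gene kept per description and direction, 29 of 40 were higher. Of the 59 genes, 55 had groups that did not overlap, against 9361 of 9599 annotated genes. The 4 that overlapped were all Copia-type.

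**Figure D3:**
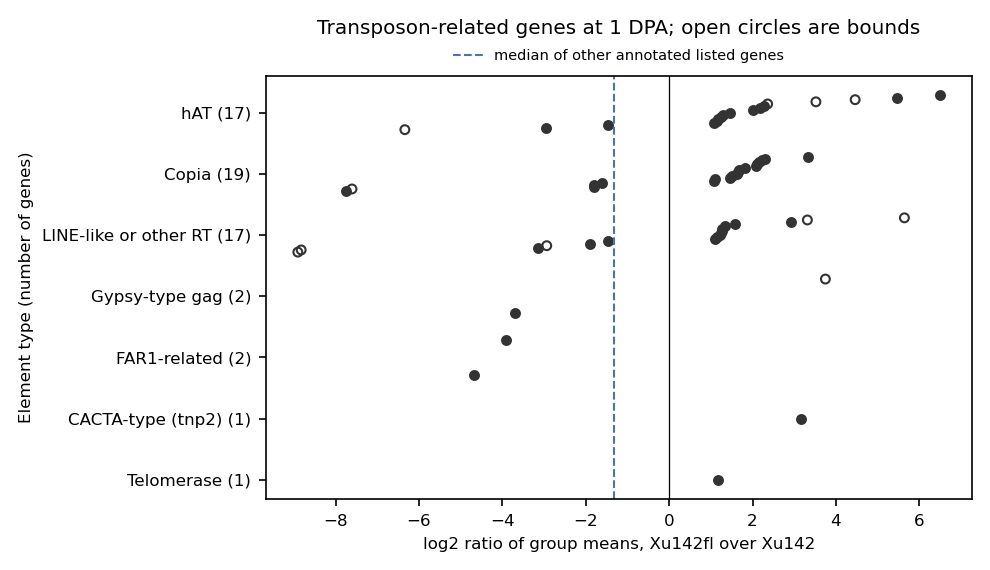
Log2 ratio of group means, Xu142fl over Xu142, for each of the 59 transposon-related genes at 1 DPA by element type, with open circles for bounds where 1 genotype had no read and a dashed line at the median of the other annotated listed genes, -1.32. The 42 higher genes lie to the right of 0, and the 5 open circles on the left have no read in Xu142fl.

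Among the higher hAT genes at 1 DPA was again the RICESLEEPER 1 gene Gh_D02G012700, with 124, 149.6 and 158 in Xu142fl, against 2.07, 2.73 and 0 in Xu142. Its log2 ratio was 6.49 ± 0.75 (adjusted p = 1.25e-26 in the authors' deposited table). It was not listed at 0 DPA, so that its level that day is not known. The RICESLEEPER 2 gene Gh_A09G094300 (A09, 59958859 to 59960892) had 87.3, 107 and 97.6 in Xu142fl, against 16.5, 16.4 and 26.9 in Xu142, a log2 ratio of 2.28 ± 0.27. The DAYSLEEPER gene Gh_D11G199900, not called by the refit at 0 DPA, had 28.1, 29.7 and 29.5 in Xu142fl, against 5.17, 8.19 and 5.85 in Xu142 at 1 DPA. Its groups were narrow, and the log2 ratio was 2.18 ± 0.21.

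Putative Ac transposase was the name of 6 of the 17 hAT genes, all of them higher in Xu142fl at 1 DPA. Gh_Contig01076_ERROPOS454315G000100 had 25.1, 23.6 and 28.9 in Xu142fl and no read in Xu142, at least 22.0-fold higher at the floor of 3 reads. Gh_A10G100100 had 4.01, 6.15 and 7.94 in Xu142fl and no read in Xu142, at least 5.14-fold higher. The gene of this name with the most reads, Gh_D11G247600 (D11, 46338224 to 46340361), had 130.5, 175 and 209 in Xu142fl, against 87.9, 90.0 and 66.7 in Xu142. Its log2 ratio was 1.07 ± 0.23, and its call was lost without Xu142fl replicate 3 (edgeR, Benjamini-Hochberg adjusted p = 0.0731) and without Xu142 replicate 3 (0.0548).

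The 14 higher Copia-type genes had log2 ratios of 1.09 to 3.33, where the higher hAT genes reached 6.49. Gh_A02G210400 (A02, 105586093 to 105589279), with gag, pre-integrase and integrase domains, had 12, 41.0 and 18.7 in Xu142fl, against 2.07, 2.73 and 2.34 in Xu142, the largest ratio of these. Gh_D06G153100 (D06, 47660229 to 47661852) had the most reads of them, 105, 224 and 234 in Xu142fl, against 46.5, 80.5 and 77.2 in Xu142. Gh_D12G039100 had 30.1, 109.7 and 100.4, against 7.24, 31.4 and 10.5, so that its groups overlapped at Xu142fl replicate 1.

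Copia-type and hAT levels were low in Xu142fl replicate 1 of 1 DPA. In 14 of the 19 Copia-type genes that library was the lowest of its group or tied for the lowest, 73.7%, against 38.1% of annotated listed genes. Genes without a read in Xu142fl count here as ties. They were Gh_D11G320700 among the Copia-type genes, Gh_A02G012400 among the hAT genes and 231 of the annotated listed genes. Among the reverse transcriptase genes they were Gh_A06G182400, Gh_A08G097900 and Gh_D04G038900. The ratio of Xu142fl replicate 1 to the mean of replicates 2 and 3 had a median of 0.638 among the Copia-type genes and of 1.02 among annotated listed genes. Unannotated Copia-type transcripts gave 20 of 25 and a median ratio of 0.656, and the 17 hAT genes gave 14 of 17 and 0.771. The reverse transcriptase genes gave 10 of 17 (58.8%) and 0.823. In Xu142 the same ratio of replicate 1 had a median of 0.672 among the Copia-type genes and of 0.810 among annotated listed genes.

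With all libraries the edgeR refit called 16 of the 19 Copia-type genes (84.2%) and 93.9% of all 10793 listed genes of 1 DPA. Without Xu142fl replicate 1 it called 17 Copia-type genes (89.5%) and 84.5% of all listed genes. It called 10 (52.6%) without Xu142fl replicate 2 and 10 without Xu142fl replicate 3, where 78.6% and 77.4% of all listed genes were called. It called 12 (63.2%) without Xu142 replicate 3, where 81.5% of all were called. Without Xu142 replicate 1 and without Xu142 replicate 2 it called 15 (78.9%), where 94.9% and 85.8% of all were called. The part of the low values in Xu142fl replicate 1 in these counts was not tested. Calls lost in this way included Gh_D12G039100 and Gh_D06G153100, each without Xu142fl replicate 2 and without Xu142fl replicate 3. Gh_A13G263600, with 7.02, 41.0 and 44.2 in Xu142fl, against 2.07, 8.19 and 9.36 in Xu142, was not called by the edgeR refit with all libraries (Benjamini-Hochberg adjusted p = 0.0743).

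**Figure D4:**
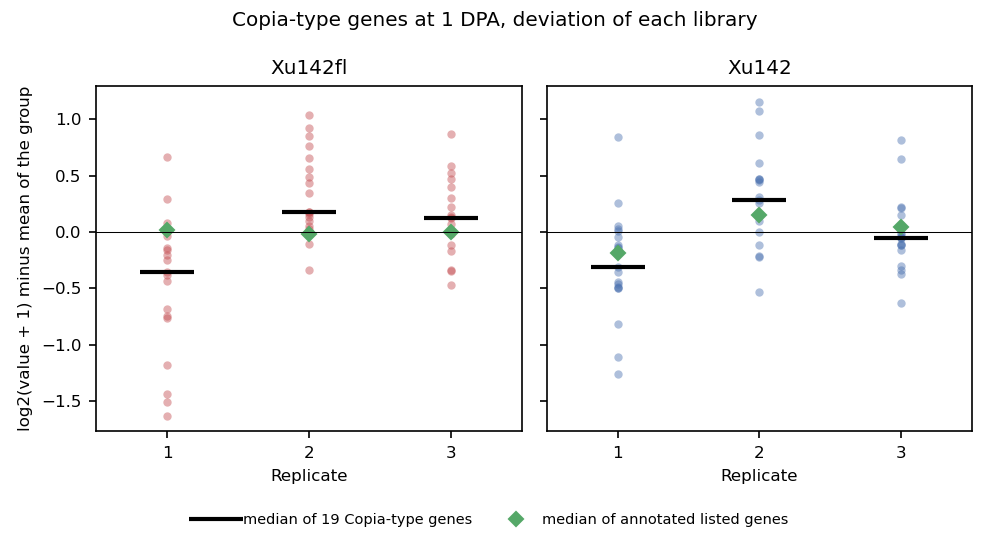
Deviation of each library from the mean of its group, as log2(value + 1), for the 19 Copia-type genes at 1 DPA, with Xu142fl on the left and Xu142 on the right, dark bars for their medians and diamonds for the medians of annotated listed genes. In Xu142fl replicate 1 the Copia-type median was -0.35, while that of annotated listed genes was 0.02.

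A pair of Copia-type genes went the other way by a large ratio. Gh_D11G320700 (D11, 64204543 to 64205918) had no read in the Xu142fl libraries, against 111, 189.6 and 169.6 normalised reads in Xu142, at least 195-fold lower. Gh_A13G085900 (A13, 27213869 to 27214462) had 1.00, 0 and 0 in Xu142fl, against 24.8, 83.2 and 108 in Xu142. With 1 read in Xu142fl and 177 in Xu142, it was 259-fold lower (95% counting interval 45.8 to 10277). The nearest listed gene to Gh_A13G085900, BIG GRAIN 1-like E at 3.394 kb, was lower too, with a log2 ratio of -6.50.

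Several reverse transcriptase genes had reads in 1 genotype alone at 1 DPA. Gh_A06G182400 had no read in Xu142fl at 1 DPA, against 452, 353 and 351 in Xu142, and was at least 479.8-fold lower (adjusted p = 5.83e-47 in the authors' deposited table). Gh_A08G097900 had no read in Xu142fl, against 370.2, 315 and 408 in Xu142, and was at least 454-fold lower. The opposite held for Gh_D01G066900, which had 40.1, 76.9 and 59.0 in Xu142fl and no read in Xu142, at least 49.97-fold higher. Gh_A05G014300 had 9.03, 16.4 and 9.64 in Xu142fl and again no read in Xu142.

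Other reverse transcriptase genes moved less. Gh_D12G262600 had 51.2, 107 and 76.0 in Xu142fl, against 10.3, 13.6 and 7.02 in Xu142, a log2 ratio of 2.91 ± 0.40. Gh_D08G228300, which had the most reads of the higher ones, had 156, 242 and 213 in Xu142fl, against 84.8, 94.1 and 84.2 in Xu142, a log2 ratio of 1.21 ± 0.19. Gh_D07G138100 was lower, with 17.1, 12.3 and 9.08 in Xu142fl, against 60.0, 49.1 and 33.9 in Xu142. Per kilobase, the listed level of the higher genes in Xu142fl ran up to 205.8 (Gh_A07G153400), where the lower Gh_A06G182400 stood at 747 in Xu142.

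At 1 DPA 6 genes had no read in any Xu142 library, Gh_A05G014300, Gh_A10G100100, Gh_D01G066900, Gh_D02G014200, Gh_Contig01076_ERROPOS454315G000100 and Gh_Contig01109G000500. Another 5 had none in any Xu142fl library, Gh_A02G012400, Gh_A06G182400, Gh_A08G097900, Gh_D04G038900 and Gh_D11G320700. Such genes made up 10.2% and 8.47% of the 59, and 1.24% and 2.37% of the other annotated listed genes. The transposon-related genes had fewer reads, with a median mean over libraries of 32.4 normalised reads, against 154 in the other annotated genes.

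The 3 host genes and the CACTA-type gene are named here after their values were seen. Telomerase reverse transcriptase (Gh_A05G403800) had 115, 163 and 129 in Xu142fl, against 60.0, 62.8 and 57.3 in Xu142, a log2 ratio of 1.18 ± 0.16. The FAR1-RELATED SEQUENCE 7 genes were near absent from Xu142fl. Gh_D03G104500 had 0, 1.02 and 1.13 in Xu142fl, against 13.4, 21.8 and 19.9 in Xu142, and Gh_A03G082600 had 1.00, 0 and 1.13 in Xu142fl, against 13.4, 6.82 and 11.7 in Xu142. The CACTA-type gene Gh_A08G113200 had 7.02, 7.17 and 8.51 in Xu142fl, against 0, 1.36 and 1.17 in Xu142.

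By position, chromosome D02 held 4 of the 8 genes at -1 DPA, 3 of the 11 at 0 DPA and 8 of the 59 at 1 DPA, where it held 5.57%, 4.97% and 3.92% of annotated listed genes. All but 1 of these sat in a stretch of 301.9 kb, from 1044289 to 1346188, that held 7 RICESLEEPER genes. Of these 7, at 1 DPA 5 were higher and 2 lower, while the other listed genes of the stretch were 3 higher and 6 lower. The lower RICESLEEPER genes, Gh_D02G014500 and Gh_D02G014900, lay at the end of the stretch, beyond the higher ones. By domain, a further listed gene there, Gh_D02G013800, carries the hAT domain under another name and was lower, so that 5 of 8 genes with the domain were higher and 3 lower. Without D02, 4 of 4 genes were higher at -1 DPA, 5 of 8 at 0 DPA and 37 of 51 at 1 DPA.

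Along the stretch the 16 listed genes of 1 DPA fell into 4 runs of 1 direction, 5 higher, 3 lower, 3 higher and 5 lower, and direction changed in 3 of 15 adjacent pairs. At 1 of these changes, Gh_D02G014200 (D02, 1235517 to 1254478) had 8.03, 15.4 and 17 in Xu142fl and no read in Xu142 at 1 DPA, while the 60S ribosomal protein L38 gene beside it had a log2 ratio of -2.32. Gh_D02G014300 had 42.1, 49.2 and 39.1 in Xu142fl, against 8.27, 25.9 and 18.7 in Xu142, and was not called by the edgeR refit (Benjamini-Hochberg adjusted p = 0.0537). Gh_D02G014500 had 11, 18.4 and 15.9, against 36.2, 38.2 and 51.5, and Gh_D02G014900 had 1.00, 12.3 and 6.24, against 38.3, 43.7 and 69.0. A pair of Sentrin-specific protease genes, Gh_D02G013800 and Gh_D02G014600, had log2 ratios of -4.56 and, as a bound, -5.34. By their descriptions, the higher genes Gh_D02G012700 and Gh_D02G013600 and the lower gene Gh_D02G013800 carry a protease domain of the Ulp1 family beside the hAT domain. Gh_D02G014200, Gh_D02G014500 and Gh_D02G014900 carry a GRAS domain, best known from plant regulators of growth, in its place.

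**Figure D5:**
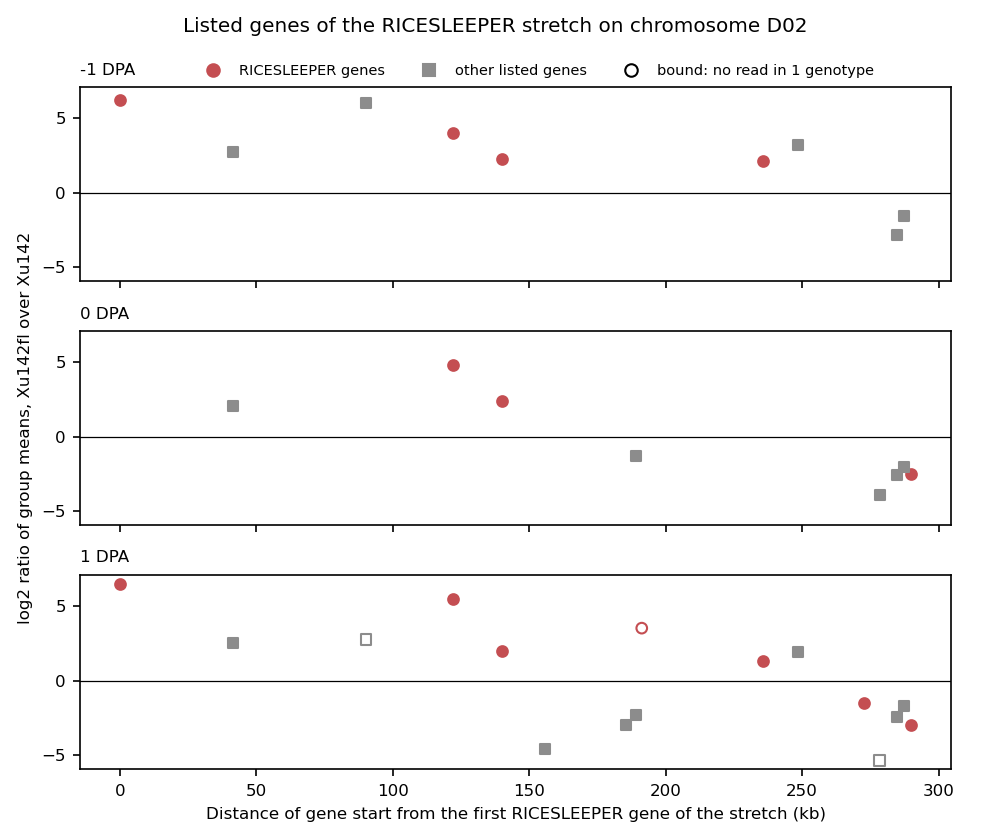
Log2 ratio of group means, Xu142fl over Xu142, for the listed genes of the stretch on D02 by distance from the start of its first RICESLEEPER gene in kb, with 1 panel per day, circles for RICESLEEPER genes, squares for other listed genes and open symbols for bounds. At 1 DPA 5 RICESLEEPER genes lie above 0 and 2 below it, and the squares below 0 include Gh_D02G013800, which also carries the hAT domain.

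A place on A02 with neighbours of the same names held 1 listed hAT gene, which was lower. Genes named phosphoglycerate mutase and Calreticulin-3 flanked the stretch on D02 (Gh_D02G012400 and Gh_D02G015100), and genes with the same names flanked the RICESLEEPER 1 gene Gh_A02G012400 on A02 (1017443 to 1023800). That gene had no read in Xu142fl at 1 DPA, against 53.8, 64.1 and 77.2 in Xu142, and was at least 81.0-fold lower. On D02 the RICESLEEPER 1 gene Gh_D02G012700 stood at 144 ± 17.6 in Xu142fl and 1.60 ± 1.42 in Xu142 (SD, n = 3 each). The flanking genes were lower in both places, with log2 ratios of -1.36 and -1.36 on D02 and -1.30 and -2.15 on A02. These RICESLEEPER 1 genes differ in their descriptions and lie on opposite strands. Gh_A02G012400 carries the GRAS domain beside the hAT domain, and Gh_D02G012700 carries the protease domain. The D02 genes with the GRAS domain were Gh_D02G014200, which was higher, and Gh_D02G014500 and Gh_D02G014900, which were lower. Which gene on D02, if any, is the homeolog of Gh_A02G012400 was not tested.

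Chromosomes and unplaced contigs gave like splits, from few contig genes. On chromosomes 7 of 7 genes were higher at -1 DPA, 5 of 8 at 0 DPA and 40 of 56 at 1 DPA. On contigs, pieces of assembly without a place on a chromosome, 1 of 1, 2 of 3 and 2 of 3 were higher. All annotated listed genes differed by place at 1 DPA, with 131 of 202 higher on contigs (64.9%) and 29.8% higher on chromosomes. The 3 contig genes had log2 ratios of -3.69 ± 0.30 (Gh_Contig00458G000100), at least 3.75 (Gh_Contig01109G000500) and at least 4.46 (Gh_Contig01076_ERROPOS454315G000100) at 1 DPA.

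The A and D subgenomes, the ancestral genomes that upland cotton joins, both had more higher genes at 1 DPA, 19 of 25 on A and 21 of 31 on D. Among annotated listed genes 30.4% were higher on A and 29.3% on D. At -1 DPA 7 of the 8 genes were on D and none was on A, where annotated listed genes numbered 297 on D and 296 on A. At 0 DPA 1 of 3 genes on A and 4 of 5 on D were higher.

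Gene structure varied by element type, and no test was made of it. A gene model in 1 block, whose length equals its span on the chromosome, was present in 17 of the 59 (28.8%), against 18.2% of other annotated genes at 1 DPA. The share was 7 of 19 among Copia-type genes, 8 of 17 among reverse transcriptase genes and 1 of 17 among hAT genes. Per kilobase, the median level over libraries was 19.6 normalised reads, against 119.6 in the other annotated genes. Among those averaging 10 or more normalised reads, 35 of 48 were higher at 1 DPA and 4 of 8 at 0 DPA.

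At 1 DPA 31 higher genes had a listed gene outside the set within 100 kb, and in 10 of them the nearest one was also higher. Of 11 lower genes with such a neighbour, 9 had a lower one. Lower genes were the more common kind among all listed genes at 1 DPA, at 11.9% of genes tested against 5.7% for higher ones.

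Every gene listed at -1 or 0 DPA was listed again at 1 DPA, with the same direction. Among annotated genes, 75.1% of those of -1 DPA and 83.2% of those of 0 DPA were listed again at 1 DPA. Listing was not equally strict on the 3 days, since the largest adjusted p in the authors' deposited tables was 4.93e-05 at -1 DPA, 0.0131 at 0 DPA and 0.0497 at 1 DPA. The deposited log2 fold changes, all at least 1 in size, also tended to be smaller than the log2 ratios of group means. Over all listed genes their median share of that ratio was 0.679 at -1 DPA, 0.655 at 0 DPA and 0.967 at 1 DPA. Of the 59 genes, 44 were listed at 1 DPA alone and 4 on all 3 days. These 4 were Gh_D01G066900, Gh_D02G013600, Gh_D02G013700 and Gh_Contig01076_ERROPOS454315G000100.

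The size of the genotype difference was compared between days among genes listed on both, with edgeR's quasi-likelihood test of the interaction and Benjamini-Hochberg adjustment over those genes. From 0 to 1 DPA 3 of 11 transposon-related genes changed, where 45.5% of 1145 genes did. Gh_A06G182400 and Gh_A08G097900 were further below Xu142 at 1 DPA than at 0 DPA, and Gh_D01G066900 was further above it. From -1 to 0 DPA 1 of 4 changed, Gh_D01G066900, where 15.2% of 559 genes did, and that call was lost in limma. From -1 to 1 DPA none of 8 changed in edgeR, in limma or with the replicate block, where 37.6% of 700 genes did in edgeR. At an unadjusted p under 0.05, 0 of the 8 did in each of these 3 fits. The smallest adjusted p of the 8 was 0.174 in edgeR, for Gh_D02G014300. A p that misses the threshold does not show that the differences were equal.

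Genes of DNA methylation and small-RNA pathways were taken from a list of search terms, and not all of them act on transposons. At -1 and 0 DPA 1 of them was listed, Gh_A04G043800, a Dicer homolog 2, which cuts double-stranded RNA into small RNAs. It had 204, 163 and 155 in Xu142fl, against 79.3, 82.9 and 59.6 in Xu142 at -1 DPA, and 132, 167 and 178, against 49.7, 44.5 and 80.4 at 0 DPA. Its log2 ratio was 1.23 ± 0.19 and 1.45 ± 0.30 on those days.

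At 1 DPA 14 genes of that list were listed, 11 higher and 3 lower in Xu142fl, with a median log2 ratio of 1.10, against -1.32 over annotated listed genes. CMT3 (Gh_D07G049900), a methyltransferase of CHG sites, had 2437, 2599 and 2325 in Xu142fl, against 1358, 1106 and 1187 in Xu142. ROS1 (Gh_D09G152300), which removes DNA methylation, had 513, 736 and 705, against 264, 317 and 374. RNA polymerase IV subunit 1 (Gh_A08G203400), which starts the small-RNA pathway, had 365, 541 and 503, against 169, 266 and 219. Argonaute 10 and 7, Dicer homologs 1, 2 and 3 and CMT1 were higher as well. ROS1 acts against silencing, and which of the other higher genes act on transposons was not tested.

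Which of the 3 lower genes act on transposons was not tested either. MICRORCHIDIA 4 (Gh_D12G159500), of a family that compacts silenced chromatin in Arabidopsis, had 3.01, 4.10 and 1.70 in Xu142fl, against 81.7, 156 and 175 in Xu142, a log2 ratio of -5.55 ± 0.45. MICRORCHIDIA 7 (Gh_D07G053900) had 27.1, 29.7 and 31.8, against 117, 172 and 98.3. SAWADEE HOMEODOMAIN HOMOLOG 1 (Gh_A05G036500), which brings RNA polymerase IV to methylated histones in Arabidopsis, had 68.2, 46.1 and 53.3, against 115, 126 and 126.

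A list of H3K27 methylation factors had no listed member at -1 or 0 DPA and 8 at 1 DPA, 7 higher and 1 lower. They were 3 REF6 genes, demethylases of H3K27me3 in Arabidopsis, all higher, and 5 JMJ25 genes, of which 4 were higher. JMJ25 is known in Arabidopsis as a demethylase of another histone site. Among REF6 genes Gh_D07G059400 had 812, 1108 and 1059 in Xu142fl, against 439, 416 and 455 in Xu142, a log2 ratio of 1.18 ± 0.14. Silencing factors whose level did not meet the authors' criteria are not in the tables.

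Markers of other tissues moved in the same comparisons. At 1 DPA the pollen and anther list had 18 higher and 47 lower genes, with a summed level of 13244 to 14287 in the Xu142fl libraries and 60455 to 118005 in the Xu142 libraries. Green-tissue genes were 13 higher and 24 lower, with sums of 442 to 789 in Xu142fl and 1215 to 1287 in Xu142, and the 4 listed seed storage genes were lower. Heat shock genes were 6 higher and 47 lower. All 7 listed fiber genes were lower, with sums of 15409 to 21934 in Xu142fl and 166950 to 260592 in Xu142. At -1 DPA heat shock genes were 1 higher and 10 lower, green-tissue genes 0 higher and 9 lower and fiber genes 1 higher and 4 lower. Pollen genes that day were 4 higher and 3 lower, with sums of 2324 to 2532 in Xu142fl and 1627 to 1807 in Xu142. At 0 DPA pollen genes were 1 higher and 11 lower, green-tissue genes 0 higher and 9 lower, fiber genes 0 higher and 5 lower and heat shock genes 0 higher and 2 lower. No seed storage gene was listed at -1 or 0 DPA. The part of these shifts in the transposon-related results was not tested.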

How the data were processed

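RNA of 18 ovule libraries was compared, 3 for each of 6 groups, grouped and numbered by sample title. Each of 3 deposited tables covers the 6 libraries of 1 day. Per the file headers, it holds the authors' p-value, adjusted p-value and log2 fold change of Xu142 over Xu142fl, whose sign was turned here. The deposited library values are a signal, normalised reads, and 100% were whole multiples of 1 value per library within a tolerance of 0.001, from which reads were recovered. No source used here gives the aligner, counter, test, strand use, annotation or genome build, and full library depth is unknown.

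Every listed gene had an adjusted p under 0.05 and a deposited log2 fold change of at least 1 in size. The genes tested per day were recovered from the ratio of p to adjusted p. Since the tables list called genes, the calls of the authors are the result, as planned for that case, in place of a test of raw counts. Log2 ratios are those of group means, with delta-method SE. A group without reads was set at a floor of 3 reads over the group, and ratios against 1 to 3 reads have 95% exact intervals. Floors and intervals cover counting error only. Refits of the recovered reads used R 4.3.3 with the quasi-likelihood test of edgeR 4.0.16, DESeq2 1.42.0 and limma 3.58.1. Their p-values were adjusted by Benjamini and Hochberg's method over all genes tested, and the steps were tested on simulated data.

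The genes and lists were chosen with earlier results of these data known. Named are, per day, up to 8 higher and 8 lower genes with the largest ratio and a mean of at least 20 in the higher group, the 5 with the highest mean, those listed on 2 or more days, and runs of neighbours of the same description within 100000 bases. Genes outside this rule were named after their values were seen. The RefSeq gene table matched 0 of these identifiers and was not used.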

Additional observations from a re-analysis of the deposited data

Results flagged for a closer look

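The genotype difference changed between days in 4 cases, by edgeR's quasi-likelihood test of the interaction with Benjamini-Hochberg adjustment over the genes listed on both days. Fitted differences that involve a group without reads depend on the fit and are no bounds. For Gh_D01G066900 the log2 difference at 0 DPA minus that at -1 DPA was -4.17 (adjusted p = 0.0222 in edgeR, 0.136 in limma), where Xu142 replicate 3 of 0 DPA held 19.6 normalised reads and the other 2 held 6.35 and 1.014. Its difference at 1 DPA minus that at 0 DPA was 6.74 (edgeR, adjusted p = 0.00517). For Gh_A06G182400 the difference at 1 DPA minus that at 0 DPA was -7.39 (edgeR, adjusted p = 0.000115), and for Gh_A08G097900 it was -7.75 (edgeR, adjusted p = 8.07e-05). Both had reads in all 3 Xu142fl libraries at 0 DPA and none at 1 DPA. At 0 DPA the 3 Xu142fl libraries stood at 9.46%, 2.27% and 4.30% of the Xu142 mean for Gh_A06G182400 and at 13.0%, 2.61% and 6.34% for Gh_A08G097900. The 326 transcripts near absent from Xu142fl at 1 DPA had medians of 10.01%, 4.95% and 6.63% in the same libraries. The part of that shared level in these changes was not tested.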

How the results depend on the processing

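At -1 DPA the refits called 6 to 8 of the 8 genes, all higher. The fewest, 75% of the 8, came with DESeq2 size factors from the listed genes, where 79.4% of all listed genes were called. Without chromosome D02, an alternative chosen after seeing the data, 4 of 4 were higher. At 0 DPA limma on log2(value + 0.1) called 3 of the 11 (1 higher, 2 lower), DESeq2 size factors from the listed genes 7 (6 higher, 1 lower) and the replicate block 7 (3 higher, 4 lower). Leaving out 1 library gave 5 to 9, with 3 higher and 4 lower without Xu142 replicate 1 and 3 of each without Xu142fl replicate 3. With a mean of at least 10, 4 of 8 were higher there, 3 of 6 on chromosomes and 1 of 2 on contigs. At 1 DPA leaving out 1 library gave 38 to 51 calls of the 59. The 38 (64.4%) came without Xu142fl replicate 3, where 77.4% of all listed genes were called. The 51 (86.4%) came without Xu142 replicate 1, where 94.9% of all listed genes were called. A log2 ratio of at least 2 in size left 30. On contigs 1 of 2 was higher with a mean of at least 10. Copia-type calls, leaving out 1 library, ran from 10 to 17 (12 without Xu142 replicate 3), also chosen after seeing the data. In limma 0 genes changed their difference between -1 and 0 DPA (1 at an unadjusted p under 0.05). The cause of these changes was not tested.

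Factors taken from the listed genes moved their median log2 ratio, TMM by -0.17, 1.10 and 1.20 and DESeq2 factors by -1.10, 1.55 and 1.24 at -1, 0 and 1 DPA. No transposon-related gene changed direction under them. Among called ones, 6 of 8 were higher with TMM and 6 of 7 with DESeq2 factors at 0 DPA, and 42 of 49 with either at 1 DPA. Of all calls, 398 of 1144 were higher with the authors' factors, 501 of 804 with TMM and 499 of 671 with DESeq2 factors at 0 DPA, 3106 of 10130, 3505 of 5916 and 3503 of 5820 at 1 DPA, and with DESeq2 factors 299 of 692 at -1 DPA, against 479 of 872.

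Of named genes, 0 of 8 at -1 DPA, 7 of 11 at 0 DPA and 6 of 28 at 1 DPA lost their call without 1 library, and none changed direction in any alternative. Same-numbered libraries correlated by -0.02 to 0.19, with all 3 numbers over 0.1 on no day. At 0 DPA the 3 correlations were 0.158, 0.0967 and 0.189. The titles do not say that libraries pair, and these values do not settle it. Against the edgeR refit the replicate block ended 2 calls at 0 DPA, Gh_A05G014300 (adjusted p = 0.123) and Gh_Contig01109G000500 (0.0856), and changed 7 at 1 DPA. Depth limits values near 0, and unlisted genes are not analysed here.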
